A study of Homo sapiens with 4 samples.

Results

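The genes described here encode the machinery that copies nuclear DNA, apart from the MCM helicase subunits, and were chosen by symbol from a list of 45: 11 that mark and fire replication origins, 11 that act at the fork, 11 subunits of the replicative polymerases and primase, the sliding clamp and the 5 subunits of its loader, the 3 subunits of the single-strand binding protein RPA, and 3 that process Okazaki fragments. All 45 symbols were found in the deposited table of 12912 genes, each on a single row, and all 45 had enough counts to be tested. The samples are RNA-seq libraries of 786-O, an established clear cell renal cell carcinoma line that lacks functional VHL, the substrate-binding subunit of an E3 ubiquitin ligase that acts on hypoxia-inducible factors. 786-O-Ctrl (2 libraries, genotype labelled wild type and VHL-null) was compared with 786-O-VHL (2 libraries, genotype labelled VHL restoration), which carries HA-tagged wild-type VHL from a retroviral vector with a puromycin marker. The labels name the 786-OTR versions of both sublines, which per the methods also carry a retroviral triple reporter of GFP, luciferase and thymidine kinase. Both were grown in the same serum-containing medium with no other treatment named. Each group is a single subline, and the sources used here do not say whether it is a clone, whether 786-O-Ctrl holds an empty vector, or whether the libraries of a group came from separate cultures, so p-values measure only the spread between these libraries.

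DNA replication is set up in G1 phase, when the origin recognition complex (ORC) together with CDC6 and CDT1 loads the MCM helicase onto chromatin. At the start of S phase the CDC7-DBF4 kinase, CDC45 and the GINS complex turn the loaded helicase into an active one, polymerase alpha-primase lays down primers, and polymerases epsilon and delta extend them on the leading and the lagging strand with the help of the clamp PCNA. Many of the genes involved are known E2F targets whose transcription rises as cells enter S phase, so that in cultured tumor cells their mRNA level is commonly read as a sign of how many cells are cycling. In bulk RNA, fewer cells in S phase and less of an mRNA in each cell cannot be told apart.

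The libraries held between 2807779 and 22141263 counts, with 786-O-VHL replicate 1 the shallowest by far. The median absolute log2 difference between libraries of a group over the 45 genes was 0.077 for 786-O-Ctrl, against 0.18 for 786-O-VHL. The columns of the 786-O-Ctrl libraries share a replicate number and are told apart as the deeper and the shallower library. Levels are given as CPM, the counts of a gene relative to the TMM-scaled total of its library, in the order deeper and shallower 786-O-Ctrl library, then 786-O-VHL replicates 1 and 2. VHL mRNA itself was at 42.9 and 43.9 CPM in 786-O-Ctrl, against 178 and 163 CPM in 786-O-VHL, in the direction the labels state. The renal marker PAX8 was present in every library, at 277 and 272 CPM in 786-O-Ctrl, against 166 and 137 CPM in 786-O-VHL (log2 fold change -0.90). The 7 markers listed for the line did not move alike. At an edgeR FDR under 0.05, 5 were lower, 1 was higher and 1 did not pass. Of all genes tested, 31.9% were lower and 32.6% higher. VIM (-1.21) and CA12 (-2.91) fell by more than PAX8, EPAS1 rose (1.37) and KRT18 did not pass (-0.12). Of 4 markers listed for other cell types, the endothelial PECAM1 was at most 0.427 CPM and the leukocyte gene PTPRC was not listed in the table. The stromal COL1A1 lay between 5.72 and 7.12 CPM. EPCAM, listed for other epithelia and not particular to a cell type outside the epithelium, rose from 4.08 and 3.39 CPM to 10.9 and 8.02 CPM (edgeR FDR = 4.71e-05). The part of these markers in the results below was not tested.

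Replication genes were lower in 786-O-VHL almost throughout. Of the 45, 42 were lower, 1 was higher and 2 did not pass at an edgeR FDR under 0.05, where 31.9% of all 12335 tested genes were lower and 32.6% higher. The median log2 fold change (786-O-VHL over 786-O-Ctrl) was -1.36, or 38.9% of the 786-O-Ctrl level, against 0.02 over all genes tested. In 29 of the 45 the fall was over 2-fold, a size that 7.52% of all genes tested reached, and 7 genes passed the 4-fold threshold with FDR < 0.01, which 1.54% of all genes did. For the same 42 genes both 786-O-VHL libraries lay below both 786-O-Ctrl libraries, as for 39.2% of all genes tested, and for TOP1 both lay above, as for 40.8%. The 7 genes past 4-fold were ORC1, CDC6, GINS2, GINS4, CLSPN, FEN1 and LIG1. Without 786-O-VHL replicate 1, the shallowest library, the counts were again 42 lower, 1 higher and 7 past 4-fold, with a median of -1.36. These counts describe a list that was drawn up with results of these libraries known. Summed over the 45 genes, the level was 3337 and 3295 CPM in 786-O-Ctrl and 1730 and 1789 CPM in 786-O-VHL.

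**Figure D1:**
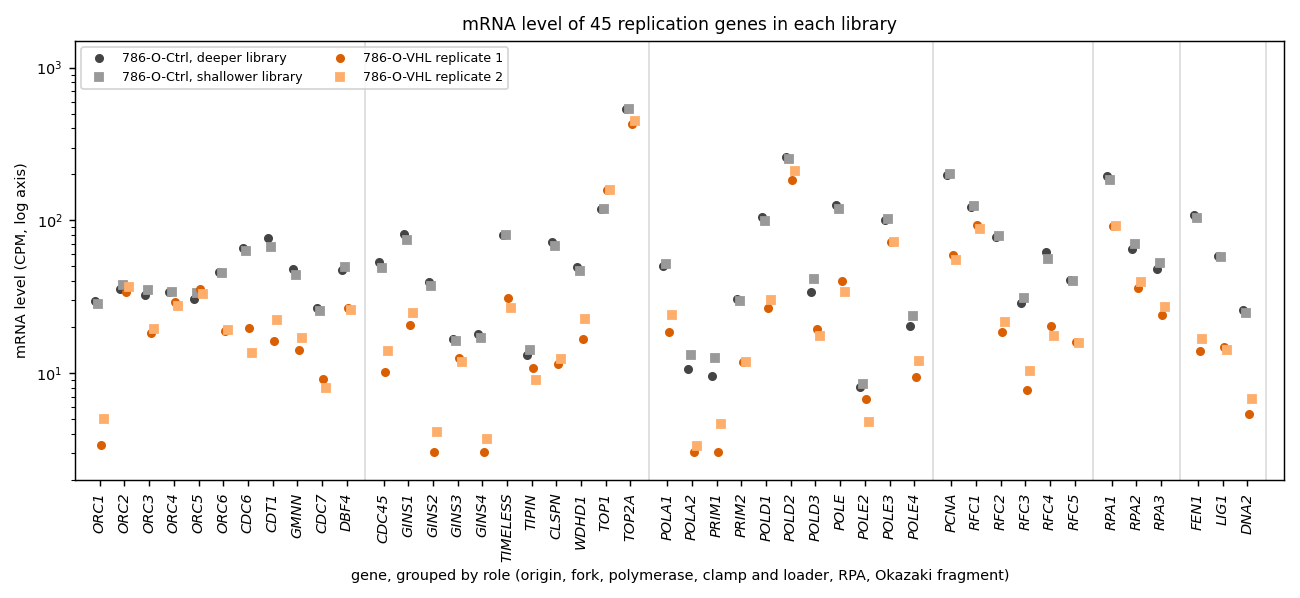
mRNA level in CPM (log axis) of the 45 genes, grouped by role, with 1 point per library (dark and light grey, 786-O-Ctrl; dark and light orange, 786-O-VHL). For 42 genes both orange points lie under both grey points, for TOP1 they lie above, and for ORC2 and ORC5 they overlap.

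The size of the fall differed between roles. The 3 Okazaki fragment genes fell most, with a median log2 fold change of -2.01, followed by the clamp and its loader at -1.65 and the fork genes at -1.55. Origin genes had a median of -1.26 and the replicative polymerases and primase one of -1.14. The RPA subunits fell least and most evenly, between -1.04 and -0.81. Within several complexes, though, subunits that work side by side changed by very different amounts, and the complexes are described in turn below.

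**Figure D2:**
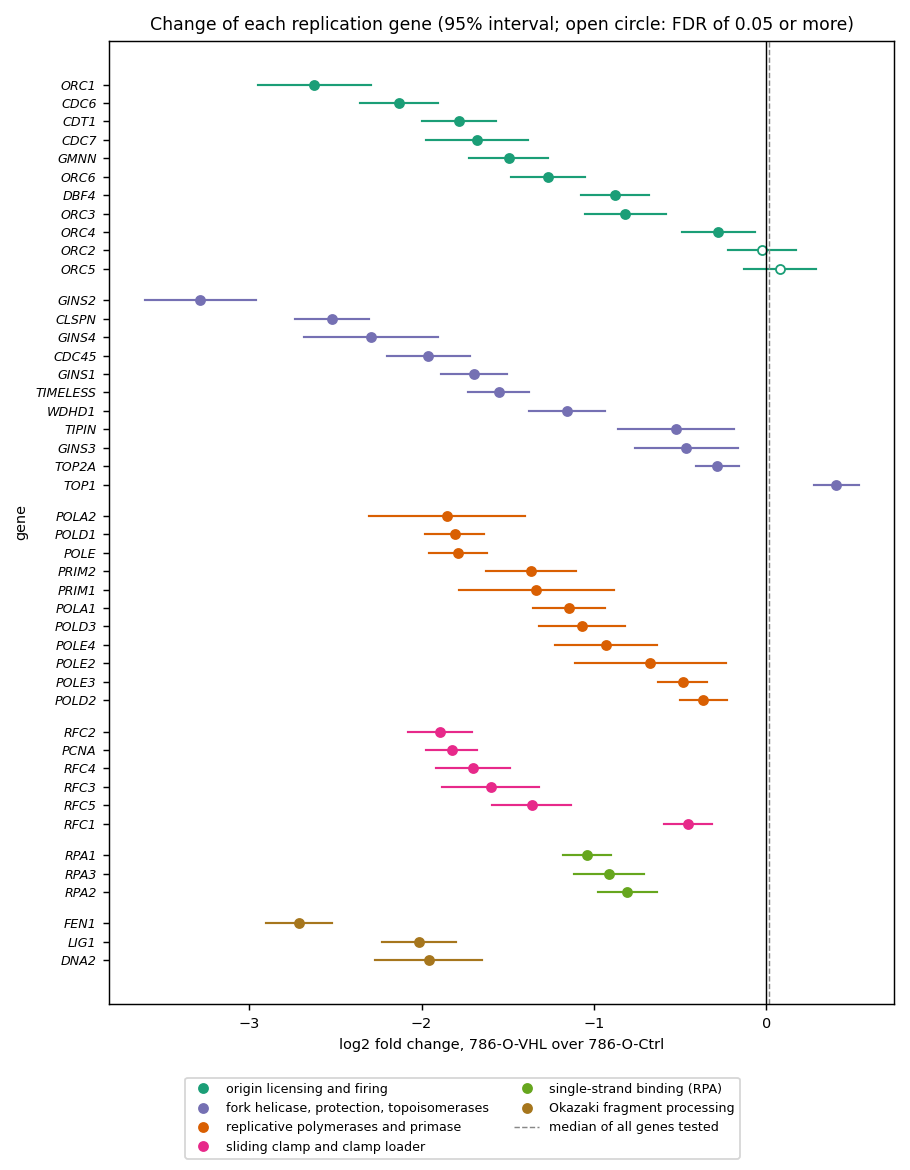
Log2 fold change of each gene with its 95% interval (implied by edgeR's F statistic), colored by role. Values run from -3.28 for GINS2 to 0.41 for TOP1, and only ORC2 and ORC5 (open circles) did not pass an FDR of 0.05.

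What the promoters of these genes share was examined in the RefSeq promoter table (GRCh38.p14, 250 bases before to 50 bases after the start), which held 40 of the 45. GINS4, POLD3, RPA2, RPA3 and DNA2 were not matched. The E2F core, searched on both strands as TTTCCCGC, TTTCGCGC, TTTGCCGC and TTTGGCGC, occurred in 15 of the 40 promoters (37.5%), compared with 3.33% of all 27305 promoters and 5.26% of the 9755 that belong to tested genes. The 15 genes with the core had a median log2 fold change of -1.78 and the 25 without it one of -1.26. Over all 513 tested genes whose promoter held the core, the median was -0.08, against 0.01 for those without it. The windows below lie wholly before the RefSeq start site. They are those of genes with the largest falls of their role that hold the core there, with the E2F core in capitals, written 5′ to 3′ on the strand of the gene and placed by an exact match to GRCh37, and they are shorter where some annotated transcript has its UTR.
CDT1 (chr16:88870122-88870196, plus strand): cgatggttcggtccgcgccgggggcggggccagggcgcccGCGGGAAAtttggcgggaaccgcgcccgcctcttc
GINS2 (chr16:85722561-85722631, minus strand): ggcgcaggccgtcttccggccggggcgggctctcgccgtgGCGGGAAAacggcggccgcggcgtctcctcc
POLA2 (chr11:65029369-65029398, plus strand): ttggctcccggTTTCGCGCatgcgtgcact
POLE (chr12:133263929-133263957, minus strand): tgggtgggagcGCGCCAAAtttctcccct
PCNA (chr20:5107280-5107367, minus strand): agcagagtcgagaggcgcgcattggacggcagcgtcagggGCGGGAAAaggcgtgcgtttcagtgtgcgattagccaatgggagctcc
RFC3 (chr13:34392220-34392249, plus strand): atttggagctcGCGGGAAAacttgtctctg
LIG1 (chr19:48673697-48673726, minus strand): acttcacccctTTTCCCGCcctcctcccat
In CDT1, GINS2, PCNA and RFC3 the letters read as TTTCCCGC on the opposite strand, with the first letter between 31 and 59 bases before the start. The first letter lies 18 bases before the start in POLE, 53 in POLA2 and 114 in LIG1. In CDC6 and GINS1 it lies after the start, and in CLSPN, GINS3 and POLE2 it runs across it. ORC1 and FEN1, which fell by more than every gene with the core except GINS2, hold none of these letters in the window, and ORC3, GINS3, POLE2 and POLE4 hold them with falls of less than 2-fold.

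**Figure D3:**
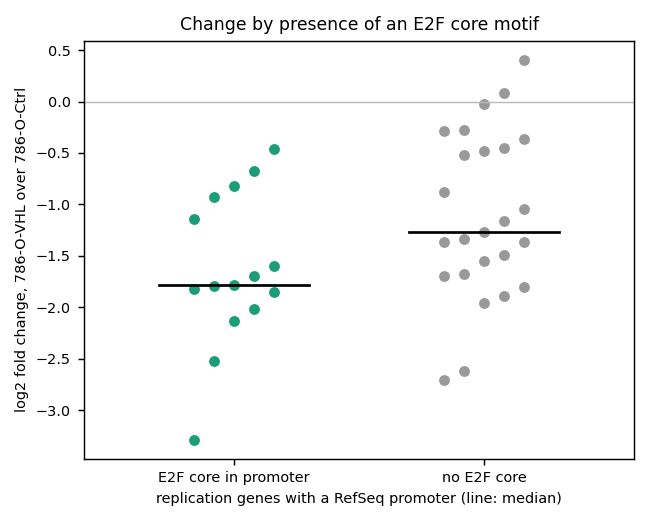
Log2 fold change of the 40 genes with a RefSeq promoter, split by whether the window holds an E2F core (15 with, 25 without; points are genes and lines are medians). The medians are -1.78 and -1.26, and the ranges overlap.

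Of the other motifs searched, the CCAAT box was found in 21 of 40 (52.5%, against 35.7% of all promoters and 36.4% of those of tested genes). The hypoxia response core, ACGTG or GCGTG, was found in 28 (70%), near the 63.1% of promoters of tested genes and against 48.4% of all. Genes with the hypoxia core had a median log2 fold change of -1.30 and those without it one of -1.48. The cell cycle homology element TTTGAA, which is known from genes that peak in G2 and mitosis, was in the promoters of TOP2A and DBF4 only, 5% of the 40, against 15.4% of all promoters and 9.41% of those of tested genes.

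Among the origin genes, 9 of 11 fell and none rose at FDR < 0.05, where 31.9% of all genes tested were lower and 32.6% higher. ORC1 (ENSG00000085840.13, GRCh37 chr1:52838501-52870095, minus strand), an ATPase subunit of the origin recognition complex, was at 29.5 and 28.6 CPM in 786-O-Ctrl, against 3.39 and 4.99 CPM in 786-O-VHL. This 6.15-fold fall (log2 fold change -2.62, standard error 0.160, edgeR FDR = 3.11e-14) was the largest of the complex. The ORC1 value of 786-O-VHL replicate 1 rests on 10 counts. With each library dropped in turn, the log2 fold change ran from -3.10 to -2.54. ORC6, the subunit least tightly bound to the rest, fell from 46.2 and 45.6 CPM to 19.0 and 19.1 CPM, a log2 fold change of -1.26. ORC2, ORC4 and ORC5 changed least of the complex. ORC2 was at 35.5, 37.7, 33.9 and 36.5 CPM and ORC5 at 30.4, 33.4, 35.6 and 32.9 CPM, with overlapping groups and 95% intervals of the log2 fold change from -0.22 to 0.17 and from -0.13 to 0.29. These intervals leave out a fall of the size seen for ORC1. ORC3 lay between, at 32.5 and 35.3 CPM against 18.3 and 19.4 CPM (log2 fold change -0.82).
ORC4 had the least secure call of the complex. Its level was 34.2 and 33.8 CPM in 786-O-Ctrl, against 29.2 and 27.7 CPM in 786-O-VHL, with no overlap (log2 fold change -0.28, edgeR FDR = 0.0196). The call was lost without the deeper 786-O-Ctrl library, without the shallower one and without 786-O-VHL replicate 2, where the FDR was 0.153, 0.114 and 0.264, and with DESeq2 (adjusted p = 0.148). It was also lost with library totals alone, where the log2 fold change was -0.14 (edgeR FDR = 0.222), and after thinning to equal depth (-0.20, edgeR FDR = 0.342). Per kilobase of the canonical transcript, ORC6 had the highest level of the complex in 786-O-Ctrl and ORC5 the highest in 786-O-VHL, while ORC1 moved from the fourth place to the last.

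The loading factors fell together with their inhibitor. CDC6, which joins ORC to load the helicase, was at 66.1 and 63.4 CPM in 786-O-Ctrl, against 19.7 and 13.7 CPM in 786-O-VHL, a 4.38-fold fall (log2 fold change -2.13, standard error 0.111, edgeR FDR = 9.63e-16). CDT1, which brings the helicase to ORC, fell from 77.2 and 66.6 CPM to 16.3 and 22.2 CPM (log2 fold change -1.78). GMNN, or geminin, binds and blocks CDT1 after origins have fired, and it fell by less, from 48.0 and 44.1 CPM to 14.2 and 16.9 CPM (log2 fold change -1.49). The 95% intervals of CDT1 (-2.00 to -1.57) and GMNN (-1.72 to -1.26) overlap, and the count of CDT1 per count of GMNN was 1.61 and 1.51 in 786-O-Ctrl, compared with 1.14 and 1.31 after VHL restoration.
The origin-firing kinase was lower in both its subunits. The catalytic subunit CDC7 fell from 26.8 and 25.5 CPM to 9.16 and 7.96 CPM, which is 31.3% of its 786-O-Ctrl level (log2 fold change -1.68). Its activator DBF4 fell from 47.2 and 49.4 CPM to 26.8 and 26.1 CPM, or 54.4% (-0.88). Their 95% intervals, -1.97 to -1.38 and -1.08 to -0.68, do not overlap.

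At the fork, 10 of 11 genes were lower, against 31.9% of all genes tested. The largest fall of all 45 genes was that of GINS2, a subunit of the 4-membered GINS ring that holds CDC45 to the helicase. GINS2 (ENSG00000131153.9, GRCh37 chr16:85709804-85723679, minus strand) was at 39.5 and 37 CPM in 786-O-Ctrl, against 3.05 and 4.10 CPM in 786-O-VHL, 9.74-fold lower (log2 fold change -3.28, standard error 0.157, edgeR FDR = 1.24e-16). The 786-O-VHL values of GINS2 are far under both 786-O-Ctrl values, although the one of replicate 1 rests on 9 counts (exact Poisson interval 4.12 to 17.1 counts, counting error only). GINS4 fell from 18.0 and 17.0 CPM to 3.05 and 3.68 CPM and also had 9 counts in that library. GINS1 fell from 81.6 and 74.0 CPM to 20.7 and 24.9 CPM, a log2 fold change of -1.70. GINS3 stood apart from its 3 partners, at 16.6 and 16.2 CPM in 786-O-Ctrl, against 12.6 and 11.8 CPM in 786-O-VHL, with a log2 fold change of -0.46 and a 95% interval of -0.76 to -0.16 that lies above those of all 3. Its call was lost without the deeper 786-O-Ctrl library (edgeR FDR = 0.0804), without 786-O-VHL replicate 2 (0.187), after thinning (0.275) and with DESeq2 (adjusted p = 0.095). CDC45, which joins GINS on the helicase, was at 53.5 and 49.0 CPM against 10.2 and 13.9 CPM, a 3.89-fold fall.

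The proteins that steady the fork and signal its stalling were lower too. CLSPN, or claspin, which relays the replication checkpoint, was at 72.6 and 68.3 CPM in 786-O-Ctrl, against 11.5 and 12.5 CPM in 786-O-VHL (log2 fold change -2.52, standard error 0.104, edgeR FDR = 6.45e-18). The partners TIMELESS and TIPIN, which form 1 complex at the fork, were not alike. TIMELESS fell from 80.9 and 80.8 CPM to 30.9 and 26.7 CPM, to 34.1% of the 786-O-Ctrl level, whereas TIPIN was at 13.2 and 14.1 against 10.9 and 9.09 CPM, 69.6% of it. The TIPIN call was lost without the shallower 786-O-Ctrl library (edgeR FDR = 0.0827) and without 786-O-VHL replicate 2, where its log2 fold change of -0.52 shrank to -0.33 (edgeR FDR = 0.325), and with DESeq2 (adjusted p = 0.102). WDHD1, which ties polymerase alpha to the helicase, fell from 49.3 and 46.5 CPM to 16.6 and 22.8 CPM, with 786-O-VHL replicate 1 the lower.

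The topoisomerases that unwind and separate DNA at the fork changed least of the fork genes and in opposite directions. TOP1 (ENSG00000198900.6, GRCh37 chr20:39657462-39753127, plus strand), which relaxes supercoils ahead of the fork, was the single member that rose, from 119 and 118 CPM to 158 and 157 CPM with no overlap (log2 fold change 0.41, standard error 0.0638, edgeR FDR = 2.9e-06). It stayed higher under every alternative tried, with log2 fold changes between 0.39 and 0.54. TOP2A, which untangles sister chromatids and is needed in mitosis, was at 532 and 535 CPM against 429.8 and 446 CPM (log2 fold change -0.28, edgeR FDR = 0.000185). The groups do not overlap for TOP2A, and its fall is small beside that of the 12 mitotic genes set next to it, whose smallest was -0.51.

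All 11 subunits of the replicative polymerases and primase were lower, against 31.9% of all genes tested. In polymerase delta, the catalytic subunit POLD1 fell from 106 and 99.0 CPM to 26.8 and 30.0 CPM (log2 fold change -1.81, standard error 0.0833, edgeR FDR = 5.94e-17). The accessory subunit POLD2, at 262 and 253 CPM against 185 and 209 CPM, kept 77.7% of its level, the smallest fall of the 11. POLD3, which contacts PCNA, was at 34.0 and 41.1 against 19.3 and 17.4 CPM and kept 47.7%. Per kilobase POLD2 was the highest and POLD3 the lowest of the 3 in both groups.
In polymerase epsilon too, the catalytic subunit fell by more than the small ones. POLE, the catalytic subunit, was at 125 and 119 CPM in 786-O-Ctrl, against 40.4 and 33.9 CPM in 786-O-VHL, a 3.46-fold fall (log2 fold change -1.79). The histone-fold subunit POLE3, also found in chromatin remodelers, was at 101 and 102 CPM against 72.3 and 72.4 CPM (log2 fold change -0.49), and its partner POLE4 was at 20.3 and 23.8 against 9.50 and 12.0 CPM (-0.93). The 95% intervals of POLE3 and POLE4 lie wholly above that of POLE. POLE2, the second subunit, was low in all libraries (8.12, 8.51, 6.78 and 4.81 CPM), and its log2 fold change of -0.67 shrank to -0.29 without 786-O-VHL replicate 2 (edgeR FDR = 0.499). Its call was also lost without either 786-O-Ctrl library (edgeR FDR = 0.058 and 0.0764) and with DESeq2 (adjusted p = 0.129).
Polymerase alpha-primase fell most evenly of the polymerase complexes, between -1.85 for POLA2 and -1.14 for the catalytic POLA1. POLA2, the regulatory B subunit, had 10.7 and 13.2 CPM in 786-O-Ctrl, against 3.05 and 3.33 CPM in 786-O-VHL. The 786-O-VHL values of POLA2 lie close together and well under the other group. PRIM1, the catalytic primase subunit, fell from 9.59 and 12.6 CPM to 3.05 and 4.63 CPM, and PRIM2, its large partner, fell from 30.8 and 29.8 CPM to 11.9 and 11.8 CPM. Both primase values are uncertain, since PRIM1 overlaps NACA on its own strand and PRIM2 overlaps PRIM2BP, a related sequence, and reads could be split between these. POLA2 and PRIM1 each had 9 counts in 786-O-VHL replicate 1.

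**Figure D4:**
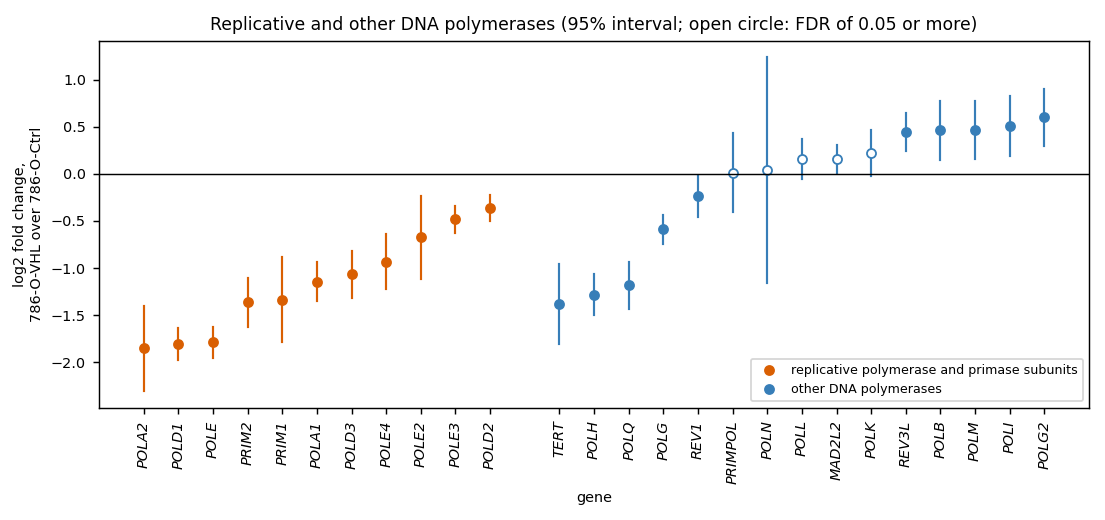
Log2 fold change with its 95% interval for the 11 subunits of the replicative polymerases and primase (orange) and 15 other DNA polymerase genes (blue), with open circles for FDR of 0.05 or more. All orange points lie below 0, and the blue ones spread from -1.38 to 0.60.

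DNA polymerases other than alpha, delta and epsilon moved in both directions. Of the 15 tested genes for repair, translesion and mitochondrial polymerases, their partners and telomerase, 5 were lower, 5 were higher and 5 did not pass, with a median log2 fold change of 0.16. These shares are close to the 31.9% lower and 32.6% higher among all genes tested. TERT, POLH and POLQ, which serve telomere synthesis, bypass of ultraviolet damage and microhomology-mediated repair, fell most, with log2 fold changes of -1.38, -1.28 and -1.19. POLG2, POLI and POLM, an accessory subunit of the mitochondrial polymerase, a translesion enzyme and an end-joining enzyme, rose most, by 0.60, 0.51 and 0.47. The base excision repair polymerase POLB was at 10.7 and 11.6 CPM in 786-O-Ctrl, against 17.0 and 14.7 CPM in 786-O-VHL. The count of rises depended on the setting, with 2 under DESeq2 and after thinning to equal depth and 8 with scaling by library totals alone.

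PCNA (ENSG00000132646.11, GRCh37 chr20:5095599-5107272, minus strand), the ring that keeps polymerases on DNA, was at 198 and 200.0 CPM in 786-O-Ctrl, against 59.0 and 55.2 CPM in 786-O-VHL (log2 fold change -1.83, standard error 0.0718, edgeR FDR = 1.91e-18). Replicates of PCNA differed by little beside this 3.54-fold fall. Of the loader RFC, the shared small subunits RFC2, RFC3, RFC4 and RFC5 fell to between 27.0% and 38.9% of their 786-O-Ctrl levels. RFC2 had the largest fall, from 77.5 and 78.7 CPM to 18.7 and 21.6 CPM. RFC4, RFC3 and RFC5 followed with log2 fold changes of -1.70, -1.60 and -1.36. RFC1, the large subunit that makes the loader specific for PCNA, was at 122 and 123 CPM against 92.9 and 88.2 CPM and kept 73.0% (95% interval of the log2 fold change -0.59 to -0.31). Its interval does not meet those of the small subunits. Per kilobase RFC1 was the third of the complex in 786-O-Ctrl and the highest in 786-O-VHL.

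RPA, which coats single-stranded DNA in replication and repair alike, was lower in all its subunits, against 31.9% of all genes tested. RPA1 was at 195 and 184 CPM against 92.3 and 92.1 CPM, RPA3 at 47.8 and 52.4 against 24.1 and 27.2 CPM, and RPA2 at 65.2 and 70.4 against 36.3 and 39.4 CPM. The 3 subunits kept 48.6%, 53.1% and 57.2% of their 786-O-Ctrl levels, and their 95% intervals overlap.
Enzymes that finish the lagging strand fell most as a role. FEN1 (ENSG00000168496.4, GRCh37 chr11:61560383-61564710, plus strand), the nuclease that trims the displaced flap of each Okazaki fragment, was at 108 and 103 CPM in 786-O-Ctrl, against 13.9 and 16.6 CPM in 786-O-VHL, 6.54-fold lower (log2 fold change -2.71, standard error 0.0925, edgeR FDR = 9.6e-20), the smallest FDR of the 45 genes. LIG1, which seals the nick, fell from 58.2 and 57.5 CPM to 14.9 and 14.2 CPM (log2 fold change -2.01). DNA2, a nuclease and helicase for long flaps, fell from 25.9 and 24.8 CPM to 5.43 and 6.77 CPM (-1.96). FEN1 overlaps FADS2 on the same strand, and the sources used here do not say how reads shared by overlapping genes were counted.

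To compare partners without any scaling between libraries, the counts of 2 genes were also divided within each library, for pairs chosen after their values were seen. ORC1 per ORC2 was 0.831 and 0.758 in 786-O-Ctrl against 0.1 and 0.137 in 786-O-VHL, a 6.79-fold difference. GINS2 per GINS3 went from 2.38 and 2.28 to 0.243 and 0.348. Claspin per TIPIN went from 5.52 and 4.85 to 1.06 and 1.37. In the polymerases, POLD1 per POLD2 was 0.404 and 0.391 against 0.145 and 0.143, and POLE per POLE3 was 1.24 and 1.16 against 0.559 and 0.468. For each of the 13 pairs drawn, both 786-O-VHL ratios lay below both 786-O-Ctrl ratios, which the choice of the pairs by their fold changes fixed, so the ratios describe sizes only.

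**Figure D5:**
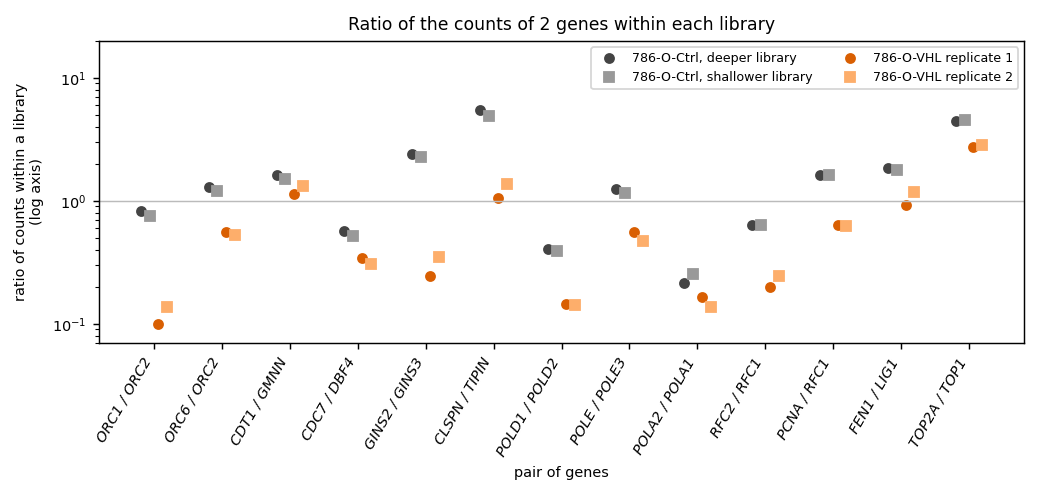
Ratio of the counts of 2 genes within each library (log axis) for 13 pairs, with grey points for 786-O-Ctrl and orange points for 786-O-VHL. The orange points lie below the grey ones in every pair, most widely for GINS2 over GINS3 and ORC1 over ORC2.

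Other replication factors moved in the same direction for the most part. Of a further list of 30 genes, 28 were in the table and 27 were tested. TOP3A and TOP3B were not listed in the table, and RNASEH2A, with 15, 9, 0 and 4 counts, was not tested. Of the 27 tested genes, 21 were lower (77.8%), 4 were higher and 2 did not pass, with a median log2 fold change of -1.05. Among all genes tested, 31.9% were lower and 32.6% higher. PCLAF, a PCNA-binding factor, fell most (log2 fold change -2.87, from 16.6 and 14.1 CPM to 1.02 and 2.32 CPM). Only 3 counts of PCLAF were found in 786-O-VHL replicate 1, so its value there is uncertain. It was followed by MCM10, which helps to activate the helicase (-2.41), and RECQL4, a helicase of origin firing (-2.03). ASF1A, a histone chaperone, POLD4, the smallest subunit of polymerase delta, and RNASEH2B, a subunit of the nuclease that removes ribonucleotides, rose most, with log2 fold changes of 0.81, 0.77 and 0.60. POLD4 was at 11.8 and 10.4 CPM in 786-O-Ctrl, against 23.1 and 17.7 CPM in 786-O-VHL, opposite to its partners POLD1, POLD2 and POLD3.
The MCM2-7 helicase itself was lower in all 6 subunits, with a median of -2.19 and a range from -2.93 for MCM4 to -1.30 for MCM7. Of 12 mitotic genes all 12 were lower, with a median of -0.96. For both lists, the share of all genes tested that were lower was 31.9%. The proliferation marker MKI67 was at 365 and 358 CPM in 786-O-Ctrl, against 140.1 and 157 CPM in 786-O-VHL. In the paper, colony and sphere formation in culture did not differ significantly between the sublines. The part of the share of cycling cells in the falls of the replication genes was not tested.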

How the data were processed

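RNA-seq libraries of 2 samples per group were sequenced on an Illumina instrument. The authors deposited 1 table of raw counts per gene. Per the submitters' processing notes STAR and CASAVA were used with the build hg19 (GRCh37). No source used here names the counting tool, its strand setting or the annotation, and 23 of the 45 genes overlap the exons of another annotated gene (GENCODE lifted to GRCh37), from which their reads may not be separable. The authors used DESeq2. Here, the counts were tested with edgeR 4.0.16 (R 4.3.3): filterByExpr at a minimum count of 10 kept 12335 genes, followed by TMM scaling, the quasi-likelihood F test on the group alone, and Benjamini-Hochberg adjustment (FDR) over all genes tested. Standard errors and 95% intervals are those implied by the F statistic. With 2 libraries against 2, an exact permutation test cannot go below p = 0.333, so the test rests on a spread shared between genes (biological coefficient of variation 4.31%). Libraries of a group differed by more than sampling noise (chi-square per degree of freedom 2.25 and 2.76) and each was counted. In the shallowest library 3 counts, the most that a count of 0 allows, are 1.02 CPM. Levels between genes were compared per kilobase of the Ensembl canonical transcript.

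The members, lists and tests were chosen with earlier results of these data known. In each role the 2 largest falls, the largest rise, every gene that did not pass and the least changed subunit of each complex are named with library values, and of other lists at most 3 genes per direction. The E2F core and other motifs were searched in RefSeq promoters. Alternatives were DESeq2 1.42.0, limma-voom (limma 3.58.1), RLE size factors, library totals, other filters, thinning, and each library left out in turn, with the lone library assumed to vary like the other group. The fits were also run on simulated counts with the same dispersion for every gene, which checks the code but not how reliable the calls made here are.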

Additional observations from a re-analysis of the deposited data

How the results depend on the processing

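With all 4 libraries kept, the alternatives to the processing called between 38 and 42 of the 45 replication genes lower and 1 higher. Of all genes tested, they called between 24.4% and 33.6% lower and between 21.8% and 41.2% higher. Between 5 and 9 replication genes passed the 4-fold threshold. The filter of 10 counts in every library tested only 41 of the 45, of which 38 were lower. TOP1 was higher in every alternative. With an FDR of 0.01, 41 of the 45 were lower, and against a fold change of 1.2 (glmTreat), 39. The share of all genes was not computed for these settings, nor for the 4-fold counts under the alternatives. The median log2 fold change was -1.23 with library totals alone, -1.26 where 10 counts were required in every library, which leaves out the 4 genes with 9 counts, and between -1.45 and -1.36 when each library was dropped. Library totals alone moved the median of all genes by 0.13 and the split of all tested genes to 25.1% lower and 41.2% higher, from 31.9% and 32.6% with TMM, while the median of the replication genes relative to all genes stayed at -1.38. ORC2 changed sign with library totals (0.11, edgeR FDR = 0.342) and without the shallower 786-O-Ctrl library (0.0023, edgeR FDR = 0.991), ran between -0.11 and 0.0023 when each library was dropped, and did not pass in any fit. Among non-replicative polymerases the number higher was 2 with DESeq2, 2 after thinning, 8 with library totals, and between 3 and 6 with each library left out. The cause was not tested. With the E2F core searched in the 100 bases before the start only, 8 of 40 promoters held it (20%). The share was 1.16% of all promoters and 1.74% of those of tested genes. Per kilobase of all exons joined, chosen after seeing the data, the order within ORC, GINS, polymerase alpha-primase, RFC and RPA differed in part. No paired analysis was possible because both 786-O-Ctrl columns carry the same replicate number. The depth of 786-O-VHL replicate 1 limits most the 4 genes with 9 counts there, and ORC1, which had 10. ORC4, GINS3, TIPIN and POLE2 lost their calls in several fits, but not without that library.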

Other observations

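The ASF1 paralogs moved in opposite directions, an example picked with the values known. The histone chaperone ASF1B fell from 116 and 109 CPM in 786-O-Ctrl to 26.1 and 30.1 CPM in 786-O-VHL (log2 fold change -1.94), while ASF1A rose from 21.4 and 22.1 CPM to 37 and 38.3 CPM (0.81), with no overlap of the groups for either gene. TOP2B, the paralog of TOP2A, was lower, as TOP2A was, at 162 and 163 CPM in 786-O-Ctrl and at 147 and 141 CPM in 786-O-VHL (log2 fold change -0.18, edgeR FDR = 0.0174).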
